A study of Mus musculus with 12 samples.

Results

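Endothelial cells of the mouse retina were examined in single-cell libraries of pups with oxygen-induced retinopathy (OIR) and of control pups kept in room air (NORM). A cell was taken as endothelial when at least 200 genes were detected in it and at least 3 of 8 endothelial genes (Cldn5, Ly6c1, Pecam1, Cdh5, Flt1, Esam, Egfl7 and Ramp2) had at least 1 transcript. Cells were thus chosen by the measured values of these 8 genes, whose own values are given as a description. They stayed in the fit across all genes, and nothing is supported with them there. The rule found 270 cells among 24772 cells with at least 200 genes. The libraries were made by Drop-seq, which captures single cells with barcoded beads and counts molecules from the 3' ends of transcripts by unique molecular identifiers (UMIs).

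All pups were of strain C57B6. OIR pups were raised by a foster mother, breathed 75% oxygen between postnatal days 7 and 12 and then returned to room air; NORM pups stayed with their own mother in room air, so fostering and oxygen cannot be told apart. Retinas were taken at postnatal day 14 (P14) or 17 (P17), whole or after depletion of rod photoreceptors. At P14 there were 2 rod-depleted and 3 whole-retina OIR libraries, and at P17 there were 1 rod-depleted and 2 whole-retina OIR libraries. NORM had 1 library for each age and fraction. The labels do not say which libraries came from separate animals, so a p-value here speaks only of spread among libraries, part of which may be technical. Library names in the labels carry a date-like number. Of the 7 libraries compared for expression, rod-depleted OIR replicate 2 and rod-depleted NORM at P14 are the only OIR and NORM pair with the same number. At P17 the numbers of OIR and NORM differ, so whatever they mark and oxygen cannot be told apart there, and the fits hold no term for it.

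In this model high oxygen stops the growth of retinal capillaries and closes part of those already formed, and the return to room air leaves the tissue short of oxygen until new vessels sprout, some of them outside their normal layer. Sprouts are led by tip cells, which extend filopodia and secrete matrix enzymes, while stalk cells behind them divide. Mature retinal capillaries form the inner blood-retina barrier with tight junctions, few transport vesicles and a set of transporters that is kept on by norrin and Wnt signalling.

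The 270 cells held 821814 UMIs, with a median of 2249.5 UMIs per cell (340 to 9906), against a median of 1045 in all other cells. Their number per library ran between 3 and 68. Of 24502 other cells, 226 had exactly 2 of the 8 genes and stood just outside the rule, and 36 of the endothelial cells had exactly 3 and stood just inside it. The cells just inside carried a median of 4 of 20 other endothelial genes, and 88.9% of them had at least 3; the cells just outside carried a median of 2, and 32.3% had at least 3. All 8 genes were present in 69 cells. A barcode occurred in more than 1 library 14 times, and no endothelial cell was among these.

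The label was checked against the 20 endothelial genes that the rule did not use, as a description only because they were read from the same cells. Of the 270 cells, 263 had at least 3 of the 20. Itm2a averaged 24.7 UMIs per 10000 in endothelial cells and 0.712 in other cells, and Igfbp7 averaged 22.8 in endothelial cells and 0.802 in other cells. Erg, an ETS transcription factor of endothelium, was seen in 43.7% of endothelial cells, in 0.098% of other cells and in 0.0439% of rod cells, whose median depth was 1014 UMIs. The share of all UMIs of a gene that lay in the 270 cells ran between 11.8% (Kdr) and 92.7% (Slco1a4) among the 20 genes. Among the 8 genes of the rule it ran between 25% (Flt1) and 96.1% (Cldn5, the main claudin of the barrier). For these 8 the share is partly set by the choice of cells.

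Markers of other cell types were also found in these cells. At least 3 of 12 pericyte and smooth muscle markers were present in 41 cells, 20 of them among the 58 cells of the rod-depleted OIR library at P17 and 14 among the 68 cells of the rod-depleted NORM library at P14. All 12 of these markers were detected, led by Rgs5 at a mean of 14.9 UMIs per 10000, and their summed level ran between 8.45 and 67.6 per 10000 in the OIR libraries tested and between 0 and 30.3 in the NORM libraries tested. At least 3 markers of Müller glia were present in 103 cells, of bipolar cells in 54 and of rods in 30. Microglial markers were rare, with at least 3 in 2 cells. No doublet caller was used, and results are given with and without the cells that carried 3 pericyte and smooth muscle markers where these decide a value.

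Endothelial cells made up 0.851 ± 0.971% of cells in OIR libraries (SD, n = 8) and 1.75 ± 1.3% in NORM libraries (SD, n = 4). In rod-depleted OIR libraries the share was 1.19% and 1.22% at P14 and 2.99% at P17, against 3.38% at P14 and 2.17% at P17 in rod-depleted NORM libraries. OIR was thus below NORM at P14 and above it at P17 in this fraction. In whole-retina OIR libraries the share was 0.251%, 0.302% and 0.609% at P14 and 0.088% and 0.163% at P17, against 0.411% at P14 and 1.05% at P17 in whole-retina NORM libraries. The OIR and NORM shares overlapped. The difference, averaged over the 4 combinations of age and fraction, was -0.576 percentage points (OIR minus NORM; exact permutation test within age and fraction, two-sided p = 0.333, 72 arrangements, smallest possible p 0.0139). Leaving out rod-depleted NORM P14 gave -0.0431. After every cell was thinned to 300 UMIs it was -0.747 (exact permutation p = 0.0139), and with at least 2 of the 8 genes it was 0.227 (exact permutation p = 0.889). A thinned cell counts only if at least 3 of the 8 genes are still seen. In libraries with at least 10 endothelial cells these genes summed to 81.9 to 114 UMIs per 10000 in OIR and 133 to 180 in NORM. The thinned difference in share therefore cannot be told apart from lower levels of the genes of the rule.

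**Figure D1:**
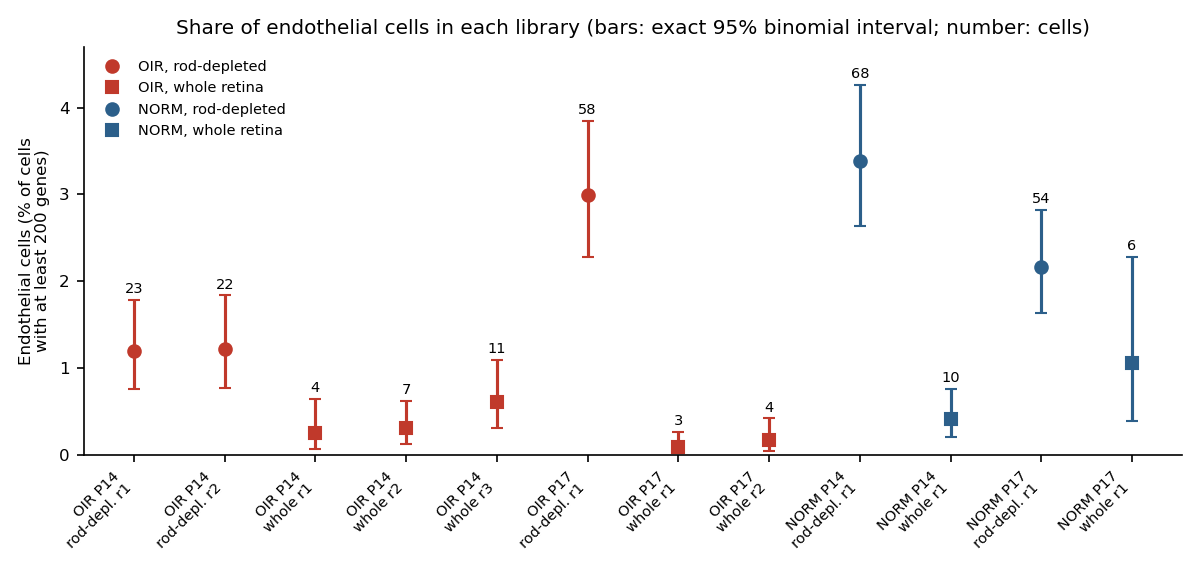
Share of endothelial cells among cells with at least 200 genes (vertical axis, percent) in each of the 12 libraries, with OIR in red and NORM in blue, circles for rod-depleted and squares for whole retina, bars for the exact 95% binomial interval (counting error only) and the number of endothelial cells above each bar. The rod-depleted OIR library at P17 (2.99%) stands above the other OIR libraries (0.088% to 1.22%).

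Rod depletion raised the share of endothelial cells. It was 2.19 ± 1% in rod-depleted libraries (SD, n = 5) and 0.411 ± 0.331% in whole-retina libraries (SD, n = 7), and every rod-depleted library lay above every whole-retina library. The difference within age and oxygen groups was 1.94 percentage points (exact permutation test, two-sided p = 0.00833, 120 arrangements, the smallest p they can give). Among cells with at least 500 genes it was 1.7 percentage points and no longer passed (exact permutation p = 0.258).

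Expression was compared between libraries, not cells. The 7 libraries with at least 10 endothelial cells were used, with 246 of the 270 cells: 4 OIR libraries (rod-depleted P14 replicates 1 and 2, whole-retina P14 replicate 3 and rod-depleted P17, with 23, 22, 11 and 58 cells) and 3 NORM libraries (rod-depleted P14, whole-retina P14 and rod-depleted P17, with 68, 10 and 54 cells). Levels are mean UMIs per 10000 and are listed in this order of libraries. Differences are OIR minus NORM in log2(level + 1), with the standard error after ±, from limma fitted to all genes with oxygen, age and fraction as terms and libraries weighted by their number of cells. The added 1 shrinks the difference of low genes. Endothelial cells were deeper in the OIR libraries, with medians of 2806 to 4495 UMIs, than in the NORM libraries, with medians of 1430 to 2240.

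Among the genes lower in OIR were 5 of the barrier transporter list: Slco1a4, Slc16a1, Mfsd2a, Slc22a8 and Bsg, which is a partner of transporters. Among the genes higher were the tip cell gene Igfbp3, the matrix genes Col18a1 and Loxl2 and the cell division gene Top2a. Without the cells that carried at least 3 pericyte and smooth muscle markers, Col18a1 did not pass and Loxl2 was too low to test. Of 2152 genes tested, 32 passed an adjusted p (Benjamini-Hochberg over all genes tested) of 0.05, which is 1.49% of them. Higher in OIR were 14 genes (0.651%) and lower were 18 genes (0.836%). The same fit was also run on data simulated for these libraries, with some genes changed 2-fold or 4-fold. It called 1.38% of the unchanged genes there, more often than the adjusted p allows. The changed genes loosen the cutoff of the adjusted p, so this share is not one for data without any change. Ly6c1 is both a gene of the rule and one of the 18, so 31 called genes were not used to choose the cells. In 26 of the 32 genes the OIR and NORM libraries did not overlap; over all genes tested every OIR library lay above every NORM library in 5.34% and below it in 3.62%. Single libraries moved this count. When the whole-retina NORM library of P14 was left out, which has 10 cells and whose columns carry another replicate number than its label, limma called 0 genes (279 at unadjusted p under 0.05). It called 11 when NORM P17 was left out, 12 for OIR P17, 59 for rod-depleted OIR P14 replicate 1 and 88 for rod-depleted NORM P14. With equal weights for all libraries it also called 0 (225 at unadjusted p under 0.05). With cells thinned to 1000 UMIs it called 20, of which 16 were among the 32.

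The fit was also run without the 148 cells that carried at least 3 markers of any of 5 other cell types, which left 5 libraries with at least 10 cells. It then called 40 genes, 19 of them among the 32. Of the 5 called genes of the barrier transporter list, Bsg (-1.33), Slco1a4 (-2.67), Slc16a1 (-2.35) and Mfsd2a (-1.37) still passed, with limma adjusted p between 8.04e-05 and 0.0487. The fifth, Slc22a8, was at -1.71 (limma adjusted p = 0.0709), Tsc22d3 at -1.38 (0.062), Ctsh at -1.23 (0.0988) and S100a6 at 1.56 (0.09), and none of these 4 passed. Sept11 was at 1.01 (limma adjusted p = 0.349) and Col18a1 at 0.69 (0.535), and neither passed.

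Of 20 genes listed as barrier transporters 18 could be tested, none was higher, 5 were lower and 17 had a negative difference. The list also holds genes that are not transporters themselves, among them Bsg, Itm2a and Lsr. Below, barrier transporters means the genes of this list. The list's median difference was -1.07, against 0.0339 over all genes tested.

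Bsg, basigin, the membrane glycoprotein that brings monocarboxylate transporters to the cell surface, had 49, 22.7, 28.4 and 31.6 UMIs per 10000 in the OIR libraries, against 90.9, 97.1 and 119 in the NORM libraries. Every OIR library lay below every NORM library. Bsg averaged 32.9 ± 11.3 in OIR and 102.3 ± 14.7 in NORM (SD, n = 4 and 3), a difference of -1.66 ± 0.23 (limma adjusted p = 0.0114). Bsg is not particular to endothelial cells: at 1000 UMIs per cell 56% of rod cells had a UMI of it.

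Slc16a1, the lactate and ketone body transporter that basigin accompanies, had 7.22, 2.81, 1.98 and 1.21 UMIs per 10000 in the OIR libraries, against 11.1, 12.3 and 13.8 in the NORM libraries. No OIR library reached the lowest NORM library, and the difference was -1.95 ± 0.34 (limma adjusted p = 0.0123).

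Slco1a4, an organic anion transporter of brain and retinal capillaries, had 3.79, 0.488, 0.576 and 2.85 UMIs per 10000 in the OIR libraries, against 7.78, 9.52 and 24.9 in the NORM libraries. All OIR libraries were lower, by -2.28 ± 0.33 (limma adjusted p = 0.0114). A UMI of Slco1a4 was present in 9.09% to 43.5% of endothelial cells per OIR library and in 50% to 88.9% per NORM library; at 1000 UMIs per cell the shares were 0% to 23.8% per OIR library and 28.6% to 80.6% per NORM library, and 0.108% in rod cells.

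Mfsd2a, which carries lysolipids with docosahexaenoic acid and holds down vesicle transport across barrier endothelium, had 2.12, 4.47, 3.39 and 1.67 UMIs per 10000 in the OIR libraries, against 7.99, 3.02 and 10.5 in the NORM libraries. The groups overlapped through the whole-retina NORM library. The difference was -1.47 ± 0.31 (limma adjusted p = 0.0322), and in the pooled small libraries that the test left out the OIR cells had 2.16 per 10000 (13 UMIs) and the NORM cells 1.81 (2 UMIs), too few to give a direction.

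Slc22a8, another organic anion transporter, was the fifth at 0.404 ± 0.142 UMIs per 10000 in OIR and 2.17 ± 1.21 in NORM (SD, n = 4 and 3), with a difference of -1.39 ± 0.27 (limma adjusted p = 0.025). The other tested genes of the list did not pass. Slc2a1, the glucose transporter GLUT1, had 6.26 to 10.2 UMIs per 10000 in the OIR libraries and 12.4 to 31.4 in the NORM libraries, which did not overlap, and a difference of -1 ± 0.26 (limma adjusted p = 0.0794). Abcb1a, the efflux pump P-glycoprotein, differed by -1.09 ± 0.32 (limma adjusted p = 0.111), and Slc7a5, the large amino acid transporter, by -0.24 ± 0.24 (limma adjusted p = 0.659).

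Of 10 tested junction and adhesion genes outside the rule none was called, and the median difference was -0.06. Cldn5 (a gene of the rule, given as a description) averaged 29.2 ± 11.6 UMIs per 10000 in OIR and 44 ± 19.9 in NORM, and Tjp1, which encodes ZO-1, differed by -0.59 ± 0.24 (limma adjusted p = 0.266). Integrin beta 1 (Itgb1) differed by 1.03 ± 0.25 (limma adjusted p = 0.0629).

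Several lower genes stood outside the transporter list. Pltp, a phospholipid transfer protein, had 10.9, 7.62, 2.99 and 3.59 UMIs per 10000 in the OIR libraries, against 21.2, 9.33 and 43.6 in the NORM libraries, with 1 OIR library above the lowest NORM library and a difference of -2.15 ± 0.37 (limma adjusted p = 0.0123). Ly6a, which encodes the surface antigen Sca-1, had 1.76, 0.95, 0.678 and 0.739 in the OIR libraries, against 5.3, 3.18 and 23.4 in the NORM libraries, with no overlap and a difference of -2.53 ± 0.40 (limma adjusted p = 0.0123). Cxcl12, a chemokine listed among the artery genes, had 3.69, 0.684, 3.5 and 1.95 in the OIR libraries, against 8.09, 2.91 and 18.4 in the NORM libraries. Only 2 of the 4 OIR libraries lay below the lowest NORM library, and Cxcl12 differed by -2 ± 0.37 (limma adjusted p = 0.0185). It was the only called gene of 7 tested artery genes; of 6 tested vein genes none was called.

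Spock2, a secreted proteoglycan, was at 6.33 ± 2.99 UMIs per 10000 in OIR and 22.5 ± 6.61 in NORM, a difference of -1.90 ± 0.32 (limma adjusted p = 0.0123). Tsc22d3, the glucocorticoid-induced leucine zipper, differed by -1.30 ± 0.22 (adjusted p = 0.0123), Selenop, the selenium carrier, by -1.58 ± 0.34 (adjusted p = 0.0399), and Ctsh, a lysosomal cathepsin, by -1.20 ± 0.26 (adjusted p = 0.0413), all by limma. Hspa1a, an inducible heat shock protein, had 0.887 to 2.19 UMIs per 10000 in the OIR libraries and 4.35 to 5.84 in the NORM libraries, a difference of -1.56 ± 0.24 (limma adjusted p = 0.0114). Gng13 also passed, at -1.33 ± 0.28 (limma adjusted p = 0.0348), but it is a G protein subunit of bipolar cells. The 10 bipolar markers, Gng13 among them, summed to 0.252 to 8.5 per 10000 in the OIR libraries and 2.44 to 19.5 in the NORM libraries. This sum is not independent of Gng13, and the part of bipolar RNA in this result was not tested.

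**Figure D2:**
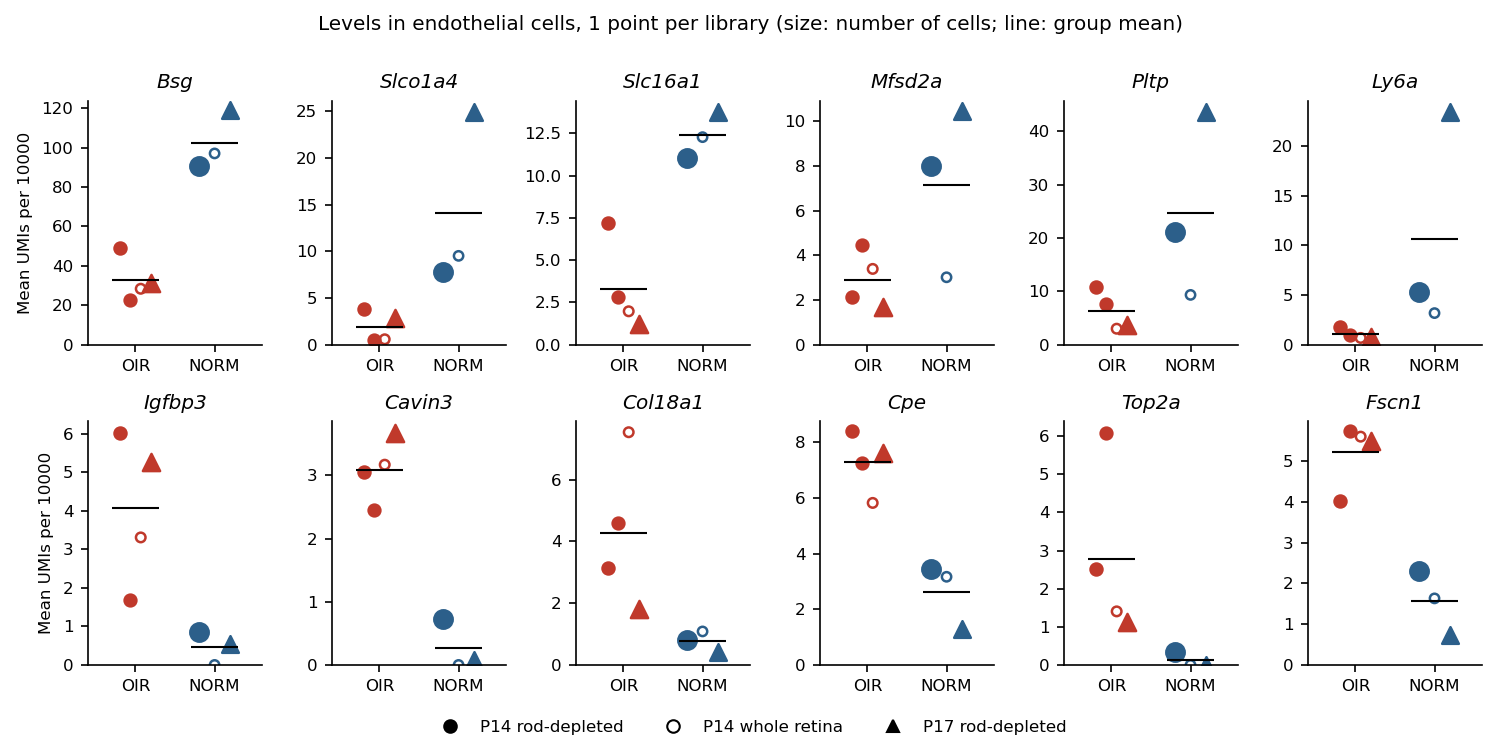
Mean UMIs per 10000 (vertical axes, from 0) of 12 genes in endothelial cells, 1 point per library, OIR left in red and NORM right in blue, filled circles for rod-depleted P14, open circles for whole-retina P14 and triangles for rod-depleted P17, point size by number of cells and the line at the group mean. In the upper row Bsg, Slco1a4, Slc16a1 and Ly6a are lower in all 4 OIR libraries, while Mfsd2a and Pltp overlap; in the lower row all 6 genes are higher in all 4 OIR libraries.

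Igfbp3, an IGF-binding protein listed among the tip cell genes, had 6.03, 1.68, 3.31 and 5.26 UMIs per 10000 in the OIR libraries, against 0.843, 0 and 0.539 in the NORM libraries. It was higher in all 4 OIR libraries, by 1.68 ± 0.29 (limma adjusted p = 0.0123). It was the only called gene of 16 tested tip cell genes (of 25 listed), whose median difference was 0.687, with 15 of 16 positive. Mcam, an adhesion molecule of growing vessels, had 5.24 ± 2.77 in OIR and 1.95 ± 0.628 in NORM (adjusted p = 0.0888), and Pdgfb, the ligand that recruits pericytes, 2.15 in OIR and 0.846 in NORM on average (adjusted p = 0.169); neither passed limma's test.

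Fscn1, which bundles actin in filopodia, had 4.02, 5.72, 5.6 and 5.5 UMIs per 10000 in the OIR libraries, against 2.31, 1.63 and 0.734 in the NORM libraries, without overlap and with a difference of 1.36 ± 0.27 (limma adjusted p = 0.025). Cavin3, a coat protein of caveolae, had 3.05, 2.44, 3.17 and 3.67 in the OIR libraries, against 0.72, 0 and 0.0725 in the NORM libraries, a difference of 1.67 ± 0.26 (limma adjusted p = 0.0114). The other caveolar genes did not pass: Cav1 differed by -0.20 ± 0.25 (adjusted p = 0.754) and Cavin1 by 0.64 ± 0.23 (adjusted p = 0.184). Cpe, carboxypeptidase E, was at 7.27 ± 1.08 in OIR and 2.63 ± 1.17 in NORM, a difference of 1.40 ± 0.26 (limma adjusted p = 0.0185).

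Of 19 tested basement membrane and matrix genes 2 were called, both higher, and the median was 0.555. By age this median was 0.0996 at P14 and 1.09 at P17, where only 1 OIR and 1 NORM library are compared. Col18a1, whose product collagen XVIII releases endostatin, had 3.15, 4.59, 7.54 and 1.8 UMIs per 10000 in the OIR libraries, against 0.822, 1.08 and 0.429 in the NORM libraries, a difference of 1.26 ± 0.24 (limma adjusted p = 0.0189). Without the cells that carried pericyte and smooth muscle markers it was 1.05 and did not pass (limma adjusted p = 0.0675). Loxl2, which crosslinks collagen IV, differed by 1.19 ± 0.27 (limma adjusted p = 0.0472). Without those cells Loxl2 was at 0.622, 0.206, 1.76 and 0.765 in the OIR libraries, against 0.106, 0 and 0.129 in the NORM libraries. It was then too low to test. Col4a1 and Col4a2, the chains of collagen IV, did not pass (1.10 ± 0.32 and 0.93 ± 0.27, limma adjusted p = 0.11 for each), and the NORM whole-retina P14 library had the highest level of both. Tgfbi, a matrix adhesion protein outside the lists, was at 1.89 ± 0.432 in OIR and 0.457 ± 0.502 in NORM, a difference of 1.28 ± 0.26 (limma adjusted p = 0.0288).

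Of 9 tested cell cycle genes (of 24 listed) 1 was called, higher, and the median was 0.53. Top2a, the topoisomerase of dividing cells, had 2.52, 6.09, 1.4 and 1.13 UMIs per 10000 in the OIR libraries, against 0.35, 0 and 0 in the NORM libraries, a difference of 1.46 ± 0.28 (limma adjusted p = 0.0228). Smc2, a condensin subunit, differed by 1.24 ± 0.25 (limma adjusted p = 0.0306). Mki67, the marker of cycling cells, had 1.63, 2.91, 6.74 and 0.565 in the OIR libraries, against 0.175, 0.796 and 0 in the NORM libraries, and did not pass over both ages (1.13 ± 0.27, limma adjusted p = 0.0589). At P14 alone Top2a differed by 1.78 ± 0.36 (limma adjusted p = 0.0456) and Mki67 by 1.55 ± 0.33 (limma adjusted p = 0.0467).

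Counted per cell, at least 2 of 10 mitosis genes were present in 26.1%, 59.1% and 63.6% of endothelial cells in the OIR libraries at P14 and in 8.62% at P17, against 4.41% and 10% in the NORM libraries at P14 and 0% of 54 cells at P17, where a count of 0 allows up to 6.6% (exact 95% upper bound) of cells with such UMIs, which is no limit on cells that express the genes. After thinning to 1000 UMIs the OIR shares were 23.8%, 42.1% and 10% at P14 and 6.12% at P17, and the NORM shares 3.33% and 14.3% at P14 and 0% at P17. The whole-retina OIR library at P14 then fell below its NORM counterpart, with 10 and 7 cells left. In rod cells at that depth the share was 0.0867%.

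**Figure D3:**
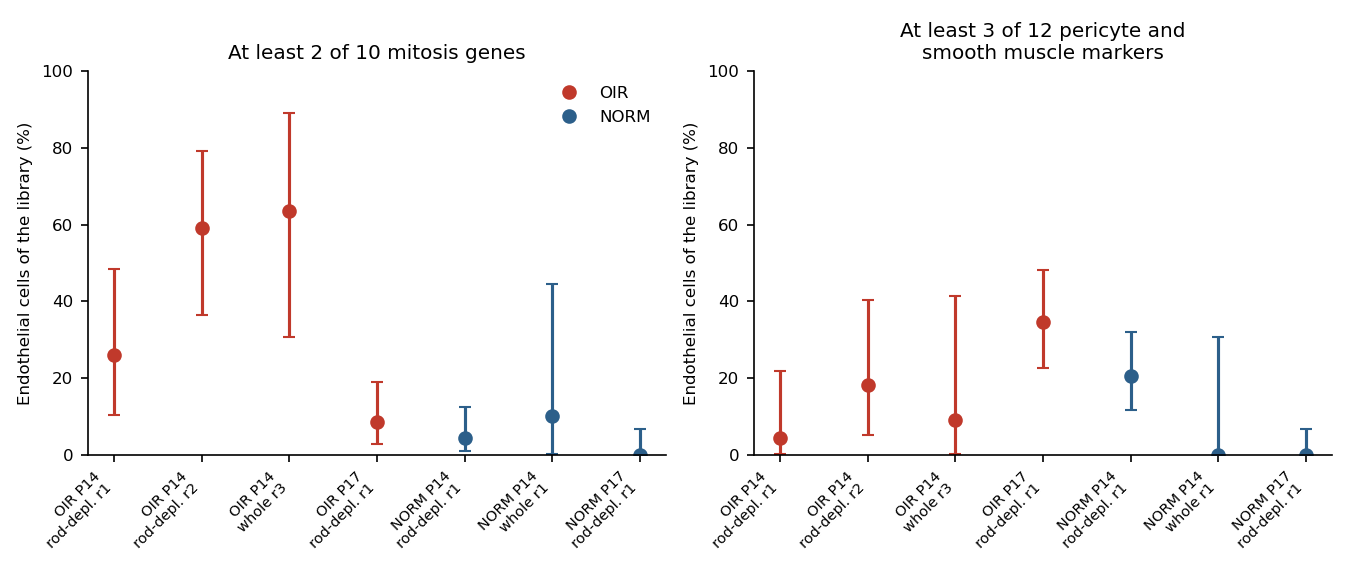
Share of the endothelial cells of each tested library (vertical axes, percent) with at least 2 of 10 mitosis genes (left) and with at least 3 of 12 pericyte and smooth muscle markers (right), OIR in red and NORM in blue, bars for the exact 95% binomial interval (counting error only). Mitosis genes are most frequent in the 3 OIR libraries at P14 (26.1% to 63.6%), and mural markers in the OIR library at P17.

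Of the 14 higher genes, 6 did not pass when the cells with at least 3 pericyte and smooth muscle markers were left out. Without them limma called 32 genes, 23 of them among the first 32. Lgals1, galectin-1, had 1.72, 9.77, 1.71 and 5.87 UMIs per 10000 in the OIR libraries, against 0.618, 0 and 0.232 in the NORM libraries, a difference of 2.05 ± 0.34 (limma adjusted p = 0.0123). Without the 41 cells that carried at least 3 of these markers the same libraries had 0.396, 0.197, 0.89 and 0.804 in OIR, against 0.397, 0 and 0.232 in NORM, and Lgals1 fell under the filter. Fabp5, a fatty acid binding protein, averaged 2.25 ± 2.13 in OIR and 0.097 ± 0.129 in NORM with all cells (difference 1.68 ± 0.36, limma adjusted p = 0.0399). Without the 41 cells it was at 0, 0, 0.222 and 0 in the OIR libraries, against 0.134, 0 and 0.048 in the NORM libraries. Loxl2 also fell under the filter there. Sept11, a septin, lost its call (limma adjusted p = 0.102), and so did H1f0, a linker histone (limma adjusted p = 0.0518).

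Among the 23 genes that passed again, Cavin3 then differed by 1.76, Igfbp3 by 1.96, Cpe by 1.57, Fscn1 by 1.47 and Top2a by 1.46, with limma adjusted p between 0.00102 and 0.0122. The 5 called barrier transporters differed by -2.16 to -1.26, with limma adjusted p between 0.00102 and 0.0479. S100a6, a calcium-binding protein, differed by 1.72 ± 0.35 with all cells (limma adjusted p = 0.0313) and by 1.49 without them (limma adjusted p = 0.0274), and its OIR levels were uneven, at 1.79, 9.38, 0.571 and 3.57 UMIs per 10000.

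**Figure D4:**
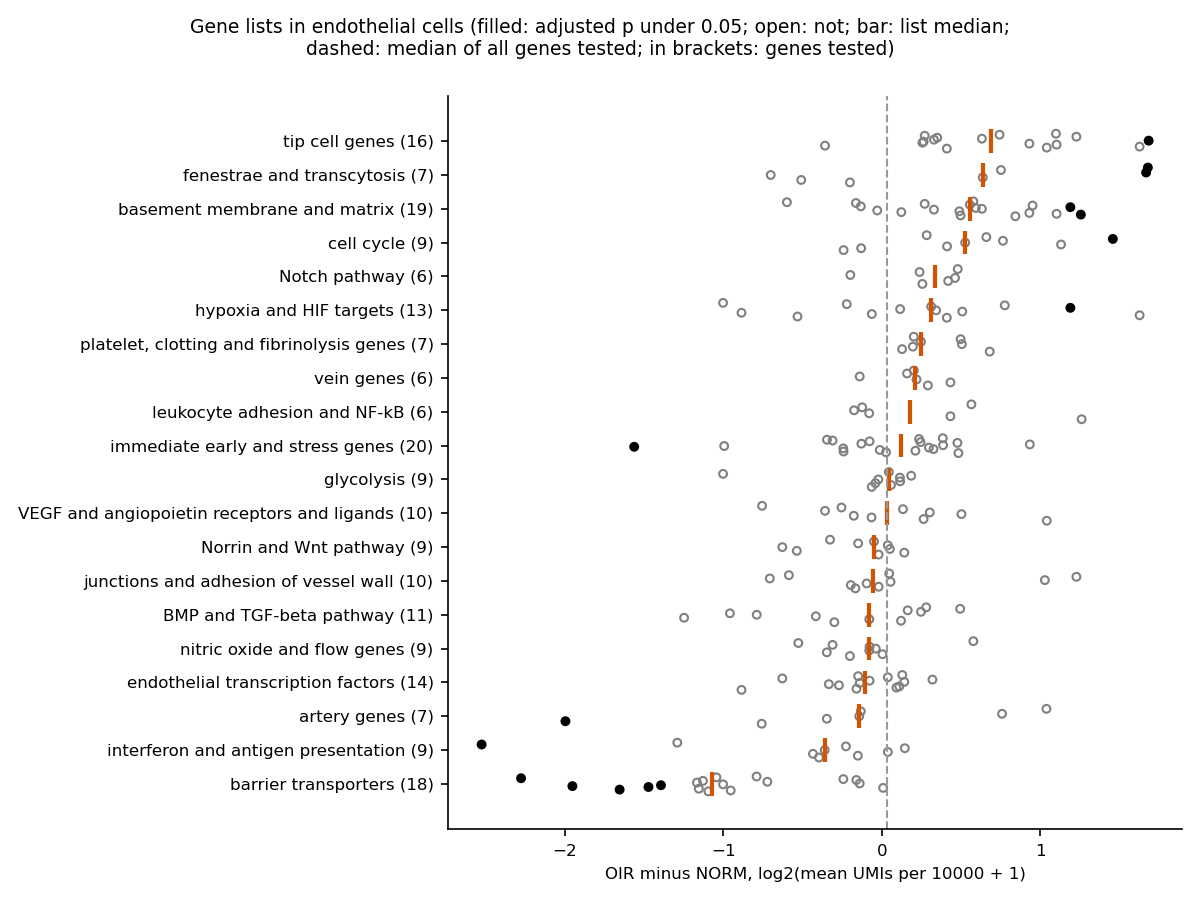
Difference between OIR and NORM (horizontal axis, log2 of mean UMIs per 10000 plus 1; right means higher in OIR) of each tested gene outside the rule in 20 gene lists, ordered by list median (orange bar), filled points for genes past an adjusted p of 0.05 and the dashed line at the median of all genes tested (0.0339). Barrier transporters lie lowest (median -1.07) and tip cell genes highest (median 0.687).

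Among 10 tested VEGF and angiopoietin genes outside the rule none was called and the median was 0.03; Kdr, the main VEGF receptor, averaged 10.3 UMIs per 10000 in OIR and 11.8 in NORM, a difference of -0.07 ± 0.22 (limma adjusted p = 0.921). Angpt2, the ligand that loosens vessels, had 1.26, 0.737, 1.03 and 4.59 in the OIR libraries, against 0.669, 0.371 and 0.503 in the NORM libraries; the groups did not overlap, and the difference was 1.04 ± 0.33 (limma adjusted p = 0.124). None of 6 tested Notch genes, 9 norrin and Wnt genes, 11 BMP and TGF-beta genes, 14 endothelial transcription factors, 9 nitric oxide and flow genes outside the rule, 7 clotting genes, 6 leukocyte adhesion genes or 9 glycolysis genes was called, and their list medians lay between -0.108 and 0.337. Fzd4 and Axin2, the norrin receptor and a Wnt target, were too low to test. Of 13 tested hypoxia genes only Loxl2 was called, which was too low to test without the cells with pericyte and smooth muscle markers. Epas1, the endothelial HIF subunit, had 2.35 to 4.92 UMIs per 10000 in the OIR libraries and 5.32 to 8.6 in the NORM libraries (difference -0.89 ± 0.24, limma adjusted p = 0.0937). Of 9 tested interferon and antigen presentation genes outside the rule only Ly6a was called, lower.

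Between rod-depleted OIR replicate 2 and rod-depleted NORM at P14, whose names share a number, all 32 genes differed in the same direction. Both libraries also entered the test that called these genes, so the shared direction was partly set in advance and lends no support. It was not counted over all genes tested. The 5 libraries with fewer than 10 endothelial cells did not enter the test. Pooled, they held 18 OIR cells with 60270 UMIs and 6 NORM cells with 11068 UMIs. The OIR cells were 4 and 7 at P14 and 3 and 4 at P17, all from whole retina, and the 6 NORM cells came from 1 library at P17, so age and oxygen cannot be told apart in these sums. In these sums 28 of the 32 genes, Ly6c1 of the rule among them, differed in the same direction. With so few NORM UMIs a low gene is often at 0 in NORM and then counts as higher in OIR. The same count was not made over all genes tested, so it gives no direction for the higher genes. All 6 NORM cells carried at least 3 rod markers. Of the OIR cells, 3 of 4 and 2 of 7 did so at P14, and 3 of 3 and 2 of 4 at P17. The part of rod RNA in these sums, Bsg included, was not tested. Bsg was at 65.9 UMIs per 10000 in OIR and 200 in NORM (397 and 221 UMIs), Slco1a4 at 4.48 in OIR and 20.8 in NORM (27 and 23 UMIs), Slc16a1 at 8.46 in OIR and 17.2 in NORM (51 and 19 UMIs) and Ly6a at 3.65 in OIR and 30.7 in NORM (22 and 34 UMIs). Among the higher genes Lgals1 had 45 UMIs, Top2a 21, Cpe 21 and Cavin3 9 in OIR, against 0, 0, 1 and 0 in NORM (11068 UMIs in all). The exceptions, all on few UMIs in NORM, were Mfsd2a, Slc22a8 (12 UMIs in OIR and 0 in NORM), Igfbp3 (2.49 per 10000 in OIR and 2.71 in NORM) and H1f0 (1.66 in OIR and 1.81 in NORM).

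Of the called genes, promoters are shown for Mfsd2a, Cxcl12, Slc16a1 and Igfbp3, each of which holds a core marked below. RefSeq (build GRCm38.p6) gave a promoter for 8 of the higher and 13 of the lower genes outside the rule, and the 250 bases before the start were searched on both strands for the core letters of 4 binding motifs. Capitals mark CTTTGA (the core read by the TCF and LEF factors of Wnt signalling), CCGGAA (the core read by ETS factors such as Erg) and ACGTG (the core read by hypoxia-inducible factors and, within CACGTG, by E-box factors), or their reverse complements. Mfsd2a lies on the minus strand at chr4:122961189-122961438, Cxcl12 on the plus strand at chr6:117168285-117168534, Slc16a1 on the plus strand at chr3:104638414-104638663 and Igfbp3 on the minus strand at chr11:7213924-7214173; all are written 5′ to 3′ on the gene's strand.
Mfsd2a: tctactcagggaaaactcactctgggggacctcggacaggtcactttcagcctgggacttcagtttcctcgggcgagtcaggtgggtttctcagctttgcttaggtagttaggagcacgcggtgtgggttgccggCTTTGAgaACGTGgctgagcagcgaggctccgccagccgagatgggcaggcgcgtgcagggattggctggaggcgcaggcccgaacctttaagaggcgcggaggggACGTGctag
Cxcl12: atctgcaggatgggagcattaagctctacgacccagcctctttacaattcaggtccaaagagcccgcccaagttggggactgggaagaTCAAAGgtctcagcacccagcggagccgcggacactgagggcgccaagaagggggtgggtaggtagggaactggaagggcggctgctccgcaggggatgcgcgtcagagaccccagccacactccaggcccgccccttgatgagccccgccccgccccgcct
Slc16a1: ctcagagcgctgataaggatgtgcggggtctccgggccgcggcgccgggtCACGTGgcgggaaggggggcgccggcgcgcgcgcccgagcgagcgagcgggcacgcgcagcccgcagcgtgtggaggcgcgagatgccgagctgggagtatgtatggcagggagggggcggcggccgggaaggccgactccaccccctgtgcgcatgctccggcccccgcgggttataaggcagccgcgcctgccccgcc
Igfbp3: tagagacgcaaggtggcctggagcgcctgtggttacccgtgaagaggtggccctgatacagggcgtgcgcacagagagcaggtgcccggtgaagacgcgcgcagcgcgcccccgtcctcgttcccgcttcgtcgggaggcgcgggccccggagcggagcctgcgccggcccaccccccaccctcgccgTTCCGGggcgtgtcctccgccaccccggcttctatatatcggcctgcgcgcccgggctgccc

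CTTTGA was found in 0 of 8 higher and 4 of 13 lower genes (Spock2, Cxcl12, Mfsd2a and Tsc22d1), against 10.6% of the tested genes with a promoter and 14% of all promoters. CCGGAA was found in 1 higher gene, Igfbp3, and in 0 of 13 lower genes, against 24.4% of tested genes. ACGTG was found in 0 higher and 3 lower genes, against 23.4% of tested genes, and GGGCGG, the GC box, in 4 higher and 7 lower genes, against 62.3%. Slco1a4, Slc22a8, Fscn1, Col18a1 and Top2a, whose promoters are not printed, held none of the capitalised cores. These are descriptions of letters in the windows, not of bound factors.

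OIR and NORM were also compared at each age. At P17 the fit compares 1 OIR with 1 NORM library, both rod-depleted, and takes its spread from the P14 libraries, so values at P17 have no replicate of their own. At P17 86 genes were called (4% of 2152; 51 higher, 2.37%, and 35 lower, 1.63%) and at P14, with 3 OIR and 2 NORM libraries, 9 genes (0.418%; 4 higher, 0.186%, and 5 lower, 0.232%). The difference between the ages itself passed in 28 genes (1.3%), with 23 more positive (1.07%) and 5 more negative (0.232%) at P17. With equal weights for all libraries only 1 gene passed it. Of the genes of the rule, Ly6c1 is counted at both ages and in the difference, and Ramp2 at P17. Leaving out rod-depleted NORM P14 left 3 such genes, and leaving out rod-depleted OIR P14 replicate 1 left 17. For the barrier transporters it passed in none: their median difference was -1.73 at P17, where 12 of 18 were called and 18 were negative, and -0.579 at P14, where 2 were called and 16 were negative.

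Of 16 tested tip cell genes, 8 were called at P17, all higher, and none at P14. Apln, the tip cell peptide apelin, had 11.5 UMIs per 10000 in the OIR library at P17 and 4.4, 1.04 and 5.51 in the OIR libraries at P14, against 0.374 in the NORM library at P17 and 1.91 and 3.17 in the NORM libraries at P14. OIR minus NORM was 3.19 ± 0.44 at P17 and 0.28 ± 0.36 at P14, and the difference between the ages was 2.91 ± 0.52 (limma adjusted p = 0.0052). Adm, the vessel peptide adrenomedullin, had 7.3 in the OIR library at P17 against 1.75 in the NORM library at P17, and the ages differed by 2.21 ± 0.46 (limma adjusted p = 0.0173). Trp53i11, another gene of the tip cell list, did so by 2.17 ± 0.43 (limma adjusted p = 0.0133). Esm1, a classical tip cell gene too low to test, had a UMI in 36.2% of endothelial cells of the OIR library at P17 and in 9.09% to 13% at P14, against 3.7% at P17 and 1.47% and 10% at P14 in the NORM libraries, with the deeper cells in OIR. At 1000 UMIs per cell the shares for Esm1 were 26.5% in the OIR library at P17 and 4.76%, 0% and 0% at P14, against 2.78% at P17 and 1.67% and 0% at P14 in the NORM libraries, and 0% in rod cells.

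Ly6a passed at both ages and Pltp at P17 but not at P14 (limma adjusted p = 0.0861 at P14). Ly6a differed by -3.81 ± 0.38 at P17 and -1.42 ± 0.30 at P14 (difference between the ages -2.40 ± 0.44, limma adjusted p = 0.00706), and Pltp by -3.28 ± 0.35 at P17 and -1.17 ± 0.28 at P14 (-2.12 ± 0.41, limma adjusted p = 0.011). For Ly6a the NORM library at P17 had 23.4 UMIs per 10000 and the NORM libraries at P14 5.3 and 3.18, while the OIR libraries were between 0.678 and 1.76 at both ages. Ccdc141 differed between the ages by -2.24 ± 0.46 (limma adjusted p = 0.0159).

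Immediate early genes are switched on within minutes of a stimulus and also during tissue dissociation. Of 20 tested immediate early and stress genes 7 passed the test of the difference between the ages, all more positive at P17. Fos had 13.8 UMIs per 10000 in the OIR library at P17 and 6.92, 9.21 and 1.47 at P14, against 2.65 in the NORM library at P17 and 13.5 and 26.4 at P14. OIR minus NORM was 2.02 ± 0.46 at P17 and -1.14 ± 0.37 at P14 (difference between the ages 3.17 ± 0.55, limma adjusted p = 0.00373). The NORM library at P17 was lower than both NORM libraries at P14 for Fos, Junb, Egr1, Fosb, Nr4a1, Atf3 and Btg2, which are these 7 genes.

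The 3 globin genes and the pericyte gene Rgs5 had the most positive differences between the ages. Hbb-bs, a beta globin of red cells, had 65.5 UMIs per 10000 in the OIR library at P17 and 0 to 2.92 at P14, against 0.437 at P17 and 3.71 and 0 at P14 in NORM (difference between the ages 6.57 ± 0.61, limma adjusted p = 7.04e-06). In the OIR library at P17 47 of 58 endothelial cells had a globin UMI, as had 54.1% of its other cells, and 666 of the 801 globin UMIs lay in 3 cells; the part of these cells in the result was not tested. Rgs5, Vtn, Higd1b and Myl9, all on the pericyte and smooth muscle list, passed as well, with Rgs5 at 35.7 in the OIR library at P17 against 0.386 in the NORM library at P17. Without the cells that carried at least 3 such markers these 4 genes fell under the filter. They are among the markers by which those cells were left out, so their fall was set by the choice. The difference between the ages was then 7.3 for Hbb-bs, 3.19 for Apln, 2.39 for Adm and 2.37 for Trp53i11. It was 3.06 for Fos, -2.36 for Ly6a and -1.98 for Pltp.

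**Figure D5:**
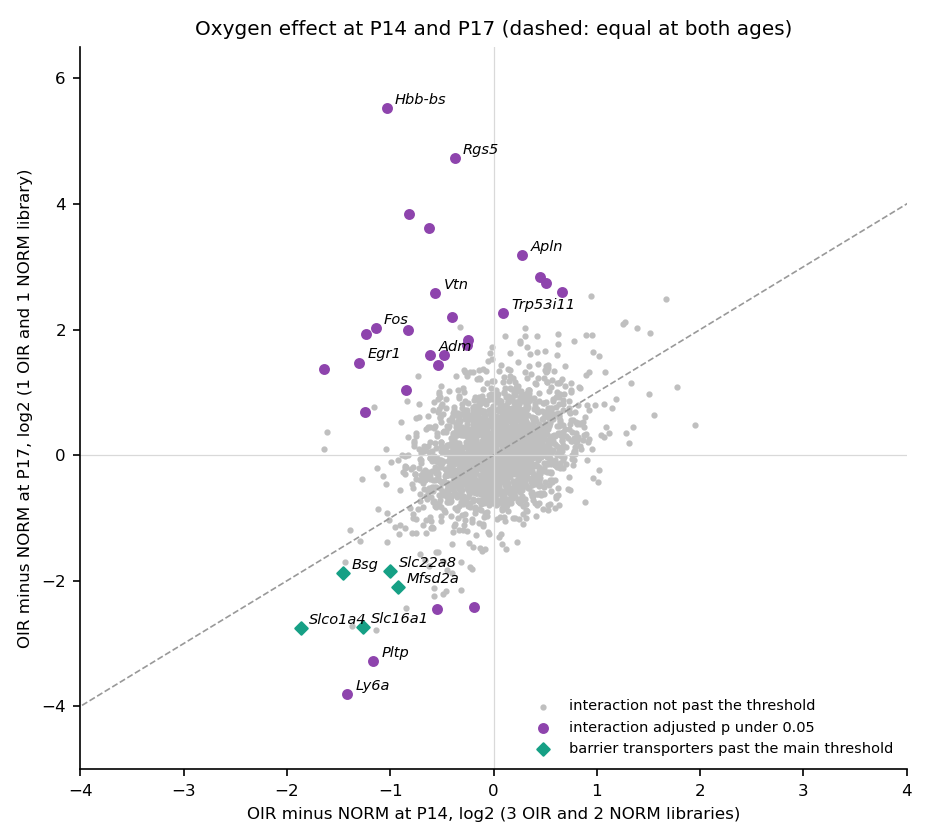
OIR minus NORM in log2 at P14 (horizontal axis, 3 OIR and 2 NORM libraries) and at P17 (vertical axis, 1 OIR and 1 NORM library) for the 2144 genes tested outside the rule, purple for the 27 genes whose difference between the ages passed an adjusted p of 0.05, green diamonds for the called barrier transporters and the dashed line where both ages are equal. Hbb-bs, Rgs5 and Apln lie far above the line, Ly6a and Pltp below it, and the called barrier transporters are negative at both ages.

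Between P17 and P14 no gene passed (0% of 2152; limma, 270 at unadjusted p under 0.05), and none passed between rod-depleted and whole retina (0%; 196 at unadjusted p under 0.05). These counts were not stable: between the ages 49 genes passed without OIR P17, 12 without NORM P17 and 6 without rod-depleted NORM P14, and between the fractions 20 passed without OIR P17, 21 without NORM P17 and 24 with equal weights. Whole retina was represented by 2 libraries with 11 and 10 endothelial cells.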

How the data were processed

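The series has a single table, with 21408 genes in rows and 31271 cells in columns. The deposited natural log values are ln(1 + UMIs / cell total × 10000), as the values themselves show: they return to whole UMIs within 0.05 in 100% of entries. The submitters' processing notes name STAR 2.4.0, bcl2fastq and the builds mm10 and GRCm38; annotation and doublet treatment are not stated in what was available here. By their names, 25472 columns belong to the 12 libraries, and 5799 other columns were not used. The whole-retina NORM columns at P14 carry replicate number 8 in place of 1.

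Values were converted to UMIs per 10000 and averaged over the endothelial cells of each library with at least 10. Genes averaging at least 1, with values above 0 in 3 or more libraries, were tested as log2(mean + 1) with limma 3.58.1 in R 4.3.3 (trend, weights by cells, two-sided, Benjamini-Hochberg). The fit was tested on simulated data with the same libraries, where it recovered most genes changed 4-fold and fewer of those changed 2-fold, and called unchanged genes more often than the adjusted p allows. Shares were tested with exact permutations within strata, using the mean of the differences within strata. Intervals are exact binomial at 95% and cover counting error only.

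The cells, gene lists and tests were chosen with earlier results of these data known, so list counts are descriptions. Named were up to 15 called genes in each direction, up to 5 each for other comparisons, the called genes of each list with up to 4 others, and the genes of the rule; Esm1, Slc7a5, Cav1, Fzd4, Axin2 and Tsc22d1 were added after their values were seen. A gene that the rule names for the difference between the ages is not reported here. Older gene symbols were matched through RefSeq (958 genes). Alternatives covered the pseudocount, filter, weights, minimum of cells, depth, rule, normalisation, subsets and each library left out.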

Additional observations from a re-analysis of the deposited data

Results flagged for a closer look

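Gap tests of the extreme library were made in 31 groups of 4 or 8 OIR libraries or 4 NORM libraries, of which chance alone would flag about 1 in 20. The rod-depleted OIR library at P17 stood apart by its share of endothelial cells, 2.99%, and rod-depleted OIR replicate 1 at P14 by its level of Fscn1, 4.02 UMIs per 10000, the lowest of the OIR libraries. For the share all 8 OIR libraries formed the group, whole-retina and rod-depleted together, although the share differs between these fractions. The rod-depleted NORM libraries had 3.38% at P14 and 2.17% at P17.

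The effect of OIR differed between P17 and P14 by the test of that difference itself, in a fit with 1 OIR and 1 NORM library at P17. The difference between the ages, in log2, was 6.57 for Hbb-bs, 4.67 for Hba-a1, 4.25 for Hba-a2, 5.10 for Rgs5, 3.15 for Vtn, 2.60 for Higd1b and 2.39 for Myl9. It was 3.02 for Fosb, 2.81 for Junb, 2.77 for Egr1, 3.17 for Nr4a1, 3.17 for Fos, 2.08 for Atf3 and 1.88 for Btg2. It was 2.91 for Apln, 2.17 for Trp53i11 and 2.21 for Adm, and -2.40 for Ly6a, -2.12 for Pltp and -2.24 for Ccdc141.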

How the results depend on the processing

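The 32 calls between OIR and NORM became 0 with no filter on low genes (14426 genes tested), 10 with a mean of at least 3 per 10000, 0 with no weights, 8 with libraries of at least 20 cells, which are also the rod-depleted libraries alone, 107 with libraries of at least 5 cells, 19 after thinning to 300 UMIs, 11 with at least 4 of the 8 genes and 6 with P14 alone. Settings chosen after seeing the data gave 20 calls after thinning to 1000 UMIs and 13 with weights by the square root of the cells. Quantile normalisation gave 35 calls and moved the median of all genes to -0.00298. Leaving out 1 library gave 0 to 88 calls: 0 without whole-retina NORM at P14, 11 without NORM at P17, 12 without OIR at P17, 59 without OIR P14 rod-depleted replicate 1 and 88 without rod-depleted NORM at P14. With the replicate number as a block 0 genes passed; the numbers are no pairing by the labels, and whether they pair could not be checked with 1 NORM library a group.

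No called gene changed sign in any alternative run that tested it. Over the named genes 1981 values kept their side of the threshold, 332 lost it and 57 gained it. Of 1682 values of genes that were never called, 43 had the other sign and were counted as kept. With 1 library left out, Bsg, Slco1a4, Hspa1a and Ly6a passed in 6 of 7 fits and Tsc22d3 in 5. Slc16a1, Mfsd2a, Spock2, Pltp and Cxcl12 passed in 4 of 7, and Slc22a8 in 4 of 6. Selenop passed in 2 and Ctsh in 1 of 7, Gng13 in 2 of 6, and the higher genes in 2 to 4 of 5 to 7.

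The 28 calls of the difference between the ages became 15 with a pseudocount of 0.2, 1 with no weights, 43 with libraries of at least 5 cells and, with settings chosen after seeing the data, 46 without the cells with mural markers and 17 after thinning to 1000 UMIs; leaving out 1 library gave 3 (without rod-depleted NORM at P14) to 36, and neither P17 library could be left out. P17 against P14 gave 1 call with the pseudocount of 0.2, 9 with libraries of at least 5 cells and 0 to 49 without 1 library (49 without OIR at P17, 12 without NORM at P17 and 6 without rod-depleted NORM at P14). Rod-depleted against whole retina gave 4 calls with the pseudocount of 0.2, 24 with no weights, 4 with libraries of at least 5 cells and 0 to 21 without 1 library (21 without NORM at P17, 20 without OIR at P17).

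The share difference between OIR and NORM was 0.227 percentage points with at least 2 of the 8 genes and -0.747 after thinning, and without 1 library -1.04 (without either rod-depleted P17 library) to -0.0431 (without rod-depleted NORM at P14). As a difference of means over all libraries, chosen after seeing the data, it was -0.902 (exact permutation p = 0.111). The share difference between rod-depleted and whole retina was 1.7 among cells with at least 500 genes (exact permutation p = 0.258) and 1.6 to 2.22 without 1 library. The causes of these changes were not tested.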
